A study of Caenorhabditis elegans with 2 samples.

Results

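The neuropeptide and insulin-like peptide genes of Caenorhabditis elegans were examined for nearby binding of HLH-15 in late embryos. They were taken as the protein-coding genes of the Ensembl WBcel235 annotation whose names start with flp-, nlp- or ins-, which gave 140 of 19973 protein-coding genes: 31 flp, 71 nlp and 38 ins genes. The rule uses names alone and no peak value. Chromatin immunoprecipitation followed by sequencing (ChIP-seq) was carried out on whole hermaphrodite late embryos of strain OP566, genotype unc-119(tm4063) III; wgIs566, in which a transgene expresses HLH-15 fused at its C terminus to a GFP-FLAG tag, and the embryos were taken 3 hours after synchronization by bleaching of eggs. The 2 libraries are biological replicates 1 and 2 of that 1 group. The sample description names an anti-GFP antibody while the antibody label names hlh-15, and the labels do not say which promoter drives the transgene. With 1 group there is no contrast between conditions, and a whole-embryo library does not say in which cells a site was bound.

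HLH-15 belongs to the bHLH (basic helix-loop-helix) transcription factors. They bind as dimers to E-boxes, sites with the letters CANNTG, and the mammalian relatives of HLH-15, NHLH1 and NHLH2, act in developing neurons and neuroendocrine cells. In mouse, Nhlh2 has been linked to a prohormone convertase gene, whose product cuts peptide precursors. The flp genes encode precursors of FMRFamide-like peptides, the nlp genes encode precursors of other neuropeptide-like proteins, among them antimicrobial-type peptides of the epidermis, and the ins genes encode insulin-like ligands of the receptor DAF-2. Precursors are cut by convertases such as EGL-3, trimmed by the carboxypeptidase EGL-21, packed into dense-core vesicles and released with the help of UNC-31; the peptides then act largely through G-protein-coupled receptors.

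Each gene was given the strongest peak whose summit lay within 2 kb of any of its transcript starts, by the authors' signal value, in each of 4 lists on the assembly ce11 (the same as WBcel235). The pooled list held 17654 peaks with signals between 18.96 and 586.7, the list past the authors' irreproducible discovery rate (IDR) threshold held 407 of them with signals of at least 58.9, and the replicate 1 and replicate 2 lists held 21250 and 30000 peaks. Exactly 30000 may mark a limit on that list, which the sources used here do not state, and it bears on every replicate 2 rank and share. Signal scales differ between lists, so values are read only within a list. The pooled and replicate lists hold background as well as peaks, and a listed peak is therefore not by itself a binding site. Read numbers are not given in the files, so the depth is unknown, and the 2 replicates allow no error estimate for a single gene, so replicate values are given beside the pooled ones. A replicate value is the strongest within reach of the gene and can lie at another place than the pooled peak. hlh-15 itself, the tagged gene, had a pooled peak of 22.5, ranked 10794, with signals of 23.7 in replicate 1 and 11.9 in replicate 2, and the closest peptide gene, nlp-2, lay 68.6 kb away.

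A peak past the IDR threshold lay within 2 kb of 5 of the 140 peptide genes (3.57%), against 2.53% of all protein-coding genes (506 of 19973), a share near that background. The 5 were nlp-76, nlp-4, ins-37, ins-13 and flp-23, in order of pooled signal. In all 5 the summit lay inside or close to a gene for a short non-coding RNA: a tRNA gene for nlp-76 and flp-23, a spliced-leader RNA gene for ins-13, a snoRNA gene for nlp-4 and an unclassified ncRNA gene for ins-37. The sequence under 4 of these summits is given here, together with that under the peaks of ins-17 and ins-39. The nlp-4 window is not printed, and it held no E-box. Among the peptide genes, ins-17 has the strongest pooled peak below the IDR threshold. The ins-39 peak is the strongest in the ins family that lies away from exons and from short non-coding RNA genes. It is weaker than the IDR-level peaks and those of ins-17, nlp-12 and ins-27. Its pooled q was 0.203, and replicate 2 listed no peak within 2 kb. The ins-17 and ins-39 windows hold 2 E-boxes each, whereas an E-box was present in 1 of the 5 IDR-level windows. The printed windows therefore do not show how often strong peaks hold an E-box. Each line is 201 bases of the NCBI WBcel235 assembly centred on the pooled summit, plus strand, 5′ to 3′. Capitals mark E-boxes (CANNTG, which reads as CANNTG on either strand) and the letters GGTTCGA or, on the other strand, TCGAACC, which occur in the B box, the internal promoter element of tRNA genes. The windows are chrX:12665138-12665338 for nlp-76; chrIII:8650334-8650534 for flp-23 (the tRNA genes), chrII:5543594-5543794 for ins-13, chrII:13834429-13834629 for ins-37, chrIII:4475617-4475817 for ins-17 and chrX:1344993-1345193 for ins-39.
nlp-76: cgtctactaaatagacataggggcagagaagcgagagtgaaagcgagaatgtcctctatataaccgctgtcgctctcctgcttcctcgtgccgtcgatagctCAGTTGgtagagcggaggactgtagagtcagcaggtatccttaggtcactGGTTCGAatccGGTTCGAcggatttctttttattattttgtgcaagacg
flp-23: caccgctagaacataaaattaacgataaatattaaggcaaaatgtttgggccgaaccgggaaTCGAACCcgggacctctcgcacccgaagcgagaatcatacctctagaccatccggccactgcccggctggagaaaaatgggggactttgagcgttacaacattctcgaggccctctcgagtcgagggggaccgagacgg
ins-13: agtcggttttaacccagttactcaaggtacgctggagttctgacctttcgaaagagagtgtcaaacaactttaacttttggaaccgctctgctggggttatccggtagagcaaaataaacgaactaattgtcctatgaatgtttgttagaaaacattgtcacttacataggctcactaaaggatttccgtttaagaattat
ins-37: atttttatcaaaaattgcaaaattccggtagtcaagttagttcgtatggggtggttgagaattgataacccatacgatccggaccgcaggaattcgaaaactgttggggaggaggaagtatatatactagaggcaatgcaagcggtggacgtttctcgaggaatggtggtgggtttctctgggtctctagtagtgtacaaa
ins-17: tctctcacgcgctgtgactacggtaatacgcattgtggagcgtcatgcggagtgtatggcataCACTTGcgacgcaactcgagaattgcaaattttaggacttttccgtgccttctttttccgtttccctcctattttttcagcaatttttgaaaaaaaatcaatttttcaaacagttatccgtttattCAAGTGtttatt
ins-39: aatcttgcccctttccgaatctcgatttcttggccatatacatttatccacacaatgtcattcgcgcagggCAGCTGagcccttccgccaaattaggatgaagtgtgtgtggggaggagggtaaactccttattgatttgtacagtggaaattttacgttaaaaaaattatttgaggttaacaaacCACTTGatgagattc

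In the nlp-76 window an E-box, CAGTTG, stood 2 bp from the summit and within the tRNA gene, and the B-box letters occurred at 52 and 63 bp. The flp-23 window held no E-box and had the B-box letters 38 bp before the summit, on the minus strand, which is the strand of its tRNA gene. Neither the ins-13 nor the ins-37 window held an E-box. The left end of the ins-13 window holds the start of the spliced-leader RNA gene, the end that is joined to other messengers in trans-splicing. In the ins-17 window CACTTG stood 37 bp before the summit and CAAGTG 89 bp after it, the same E-box on opposite strands. The ins-39 window held CAGCTG 29 bp before the summit and CACTTG 86 bp after it. A match shows only that the letters are present.

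nlp-76, a neuropeptide-like protein gene on chromosome X (WBGene00045386), had the strongest pooled peak of all 140 genes. Its pooled signal was 134.1 (rank 60), beside 82.9 in replicate 1 (rank 63) and 51 in replicate 2 (rank 65). The summit, at position 12665238, lay 1335 bp upstream of the nlp-76 start, inside an intron of the nuclear receptor gene nhr-17 and 10 bp from the 5′ end of a tRNA-Tyr gene (12665228 to 12665311, plus strand). Both replicates placed it there, with summits 35 bp and 6 bp from the pooled one.

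flp-23, an FMRFamide-like peptide gene on chromosome III (WBGene00017693), had a pooled signal of 68.2 (rank 292), with 24.5 in replicate 1 (rank 2068) and 34.6 in replicate 2 (rank 163). It was the only flp gene with an IDR-level peak. The summit, at 8650434, lay 333 bp upstream of the start and inside a tRNA-Pro gene (8650381 to 8650452, minus strand), 18 bp from its 5′ end. Of the 5 IDR-level peaks it was the only one within 500 bp of a peptide gene's start, and replicate 2 ranked it far above replicate 1.

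The insulin-like genes ins-37 and ins-13 lie on chromosome II, and both peaks stood past the 3′ end of the gene. ins-37 (WBGene00002120) had a pooled signal of 94.02 (rank 136), with 65.9 in replicate 1 (rank 115) and 33.8 in replicate 2 (rank 176). Its summit, at 13834529, lay 1578 bp downstream of the ins-37 start, 6 bp from the ncRNA gene F08G2.13 and 898 bp from the start of F08G2.5, which was the nearer coding gene. The replicate 2 summit stood 136 bp from the pooled one. ins-13 (WBGene00002096) had signals of 73.3 (rank 251), 50.3 in replicate 1 (rank 209) and 18.7 in replicate 2 (rank 1248). Its summit, at 5543694, lay 1170 bp downstream of the ins-13 start and inside sls-2.2 (5543598 to 5543707, plus strand), a gene for the spliced-leader RNA that supplies the leader for genes in operons. Replicate 1 thus ranked the ins-13 peak well above replicate 2, the opposite of flp-23.

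nlp-4 (WBGene00003742), a neuropeptide-like protein gene on chromosome I, had a pooled signal of 106.95 (rank 97), with 66.6 in replicate 1 (rank 111) and 33.3 in replicate 2 (rank 187). The summit, at 10517258, lay 797 bp downstream of its start, just past the 3′ end of the gene and outside coding genes, upstream of the snoRNA gene F59C6.15 and within 300 bp of it. The replicate summits stood 1 bp and 3 bp from it. Its 201-base window held neither an E-box nor the B-box letters. Together with nlp-76 and ins-37 it was 1 of 3 peptide genes with a peak among the strongest 1000 of both replicates. The share of all coding genes was not taken at that limit. For the strongest 2000 of both replicates there were 4 peptide genes (2.86%), against 4.39% of all coding genes. The authors' −log10 q was 3.00 for all 5 IDR-level peaks, so q does not order them.

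**Figure D1:**
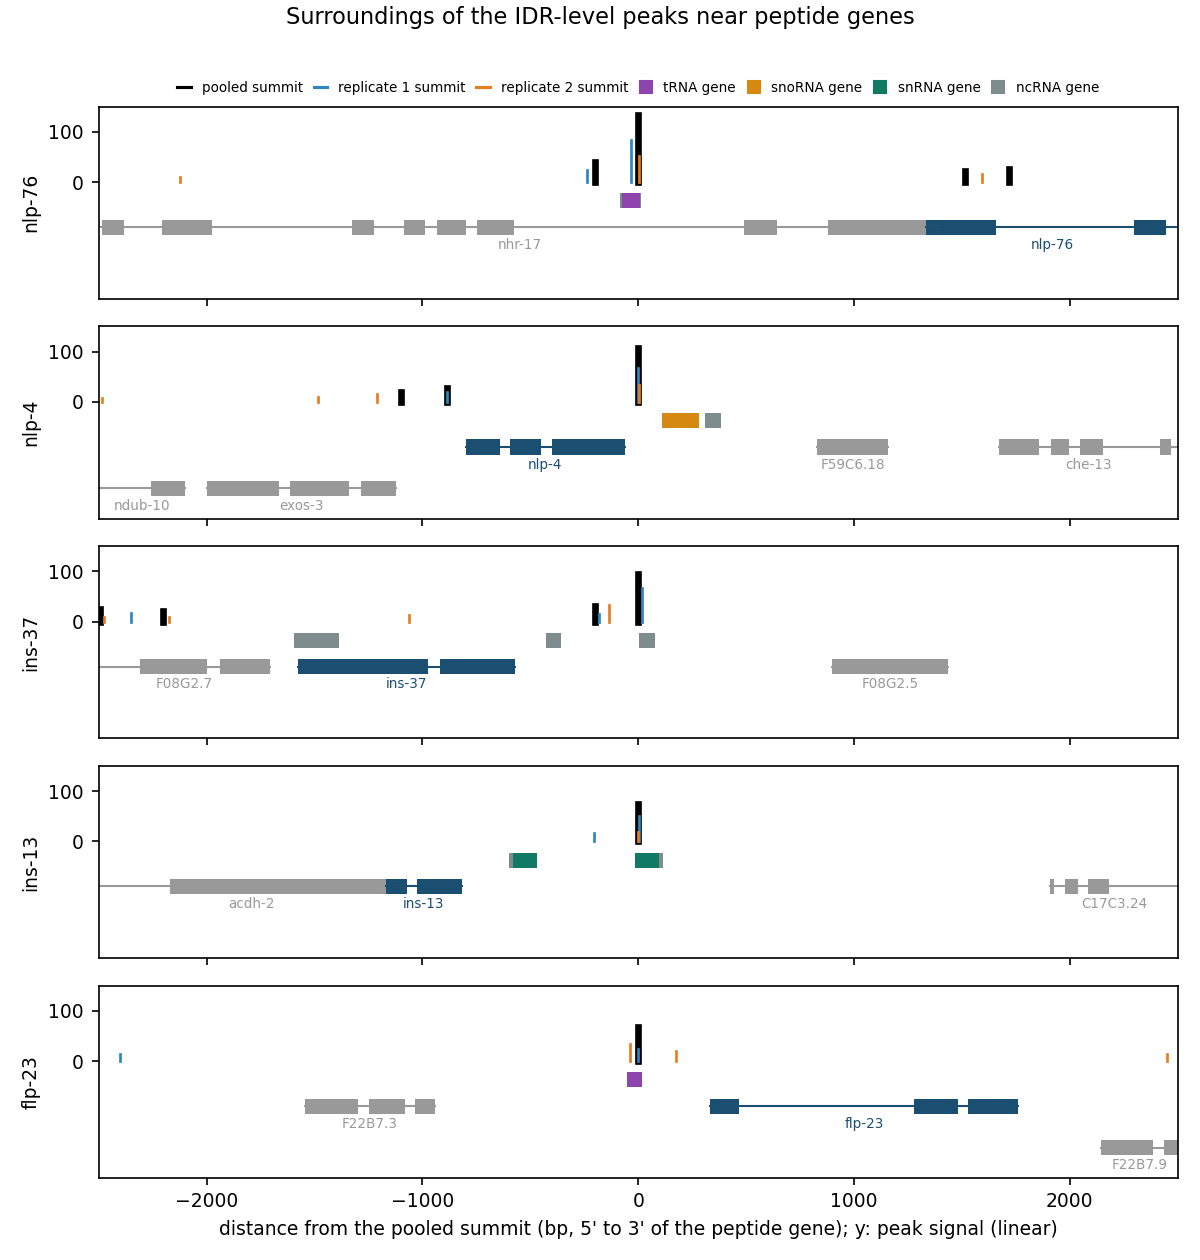
Surroundings of the 5 IDR-level peaks, drawn 5′ to 3′ along the peptide gene; the x axis is the distance from the pooled summit in bp and the y axis the authors' signal on a linear scale. Vertical lines are the summits of the pooled (black), replicate 1 (blue) and replicate 2 (orange) lists, drawn over each other, and the boxes are exons of the peptide gene (dark blue), of other coding genes (grey) and the short non-coding RNA genes above them. In each panel the strongest summit of every list stands within 300 bp of a short non-coding RNA gene.

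A tRNA, snoRNA, snRNA or ncRNA gene lay within 300 bp of all 5 IDR-level summits at peptide genes, against 147 of the 320 IDR-level summits within 2 kb of a coding start (45.9%) and 220 of all 407 IDR-level summits (54.1%). This distance and these gene types were chosen after the values were seen. Within 100 bp the count was 4 of 5, against 41.9% of the 320. With tRNA and snoRNA genes alone, within 100 bp, it was 2 of 5, against 34.4% of the 320. Short non-coding RNA genes thus lay near a large share of the IDR-level peaks at coding genes in general, and whether they account for the 5 was not tested. An E-box was present in 1 of the 5 windows, against 159 of the 320 (49.7%), and the B-box letters in 2 of the 5, against 65 of the 320 (20.3%).

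A pooled peak lay within 2 kb of 59 of the 140 peptide genes (42.1%), against 51.2% of all protein-coding genes. By family the counts were 15 of 31 flp genes (48.4%), 30 of 71 nlp genes (42.3%) and 14 of 38 ins genes (36.8%). Replicate 1 listed a peak for 72 peptide genes (51.4%), against 57.7% of all genes, and replicate 2 for 99 (70.7%), against 72.8%. Both replicate lists held a peak for 51 (36.4%), against 46.6%. Each of these shares was below that of all genes, by least in replicate 2, where the order turned when a peak counted only for its nearest coding gene (84 peptide genes, 60.0%, against 58.7%). Within 500 bp of a start the pooled count was 23 (16.4%), against 23.9% of all genes. A pooled peak with q at or under 0.05 lay within 2 kb of 7 peptide genes (5.00%), against 4.59%. These 7 were the 5 IDR-level genes, ins-17 and nlp-12.

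The length searched was alike: its median was 4001 bp for the peptide genes and for all coding genes, and 111 of the 140 peptide genes (79.3%) had a single transcript start, against 72.6%. Per 100 kb searched the peptide genes had 13.8 pooled peaks, against 18.7 for all coding genes. The replicate 1 values were 18.2 against 22.3, and those of replicate 2 were 29.1 against 31.4. The lower share of peptide genes with a peak was thus also seen per base searched. On chromosome X, which holds 34 of the 140 genes, 10 had a pooled peak (29.4%), against 49.9% of its coding genes. On chromosome III, 7 of 17 did (41.2%), against 63.0%. The shares were also lower on chromosomes I (52.6%, against 60.4%), II (42.9%, against 50.8%) and V (39.1%, against 42.0%). On chromosome IV alone the order was the other way, with 11 of 19 peptide genes (57.9%) against 49.0% of its coding genes.

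**Figure D2:**
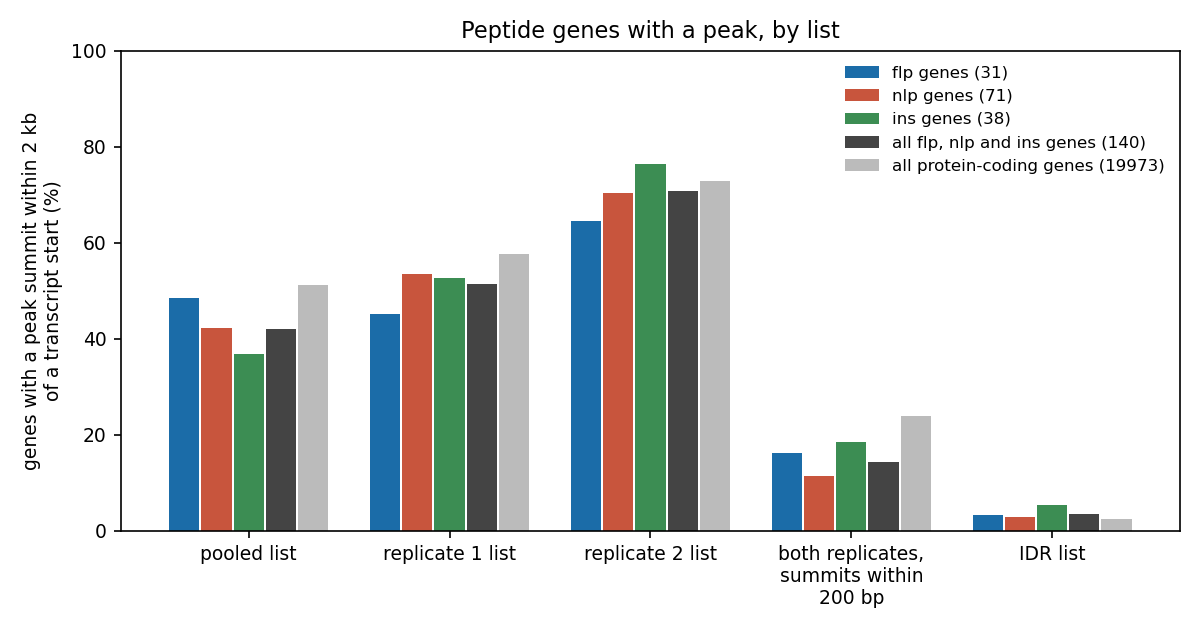
Share of genes (%) with a peak summit within 2 kb of a transcript start, for each list on the x axis. Bars are the flp, nlp and ins families, all 140 together and all 19973 protein-coding genes; in the pooled list the 140 stand at 42.1% and all genes at 51.2%, and in the IDR list at 3.57% and 2.53%.

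Among genes with a pooled peak, the strongest one had a median signal of 23.5 at the 59 peptide genes (quartiles 21.7 and 27.9, range 19.03 to 134.1), against 25.96 at 10220 coding genes (quartiles 22.05 and 32.3, range 18.96 to 586.7). The family medians were 23.4 for flp, 23.3 for nlp and 26.8 for ins genes. The strongest replicate 1 peak had a median of 16.8 at 72 peptide genes, against 17.8 at all genes with one. In replicate 2 the medians were 10.1 at 99 peptide genes and 11.4 at all genes with one. The median rank of the peptide genes' peaks was 9277 of 17654 in the pooled list, against 6534.5 for the strongest peaks of all coding genes with one. The high values at peptide genes came from a few genes.

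**Figure D3:**
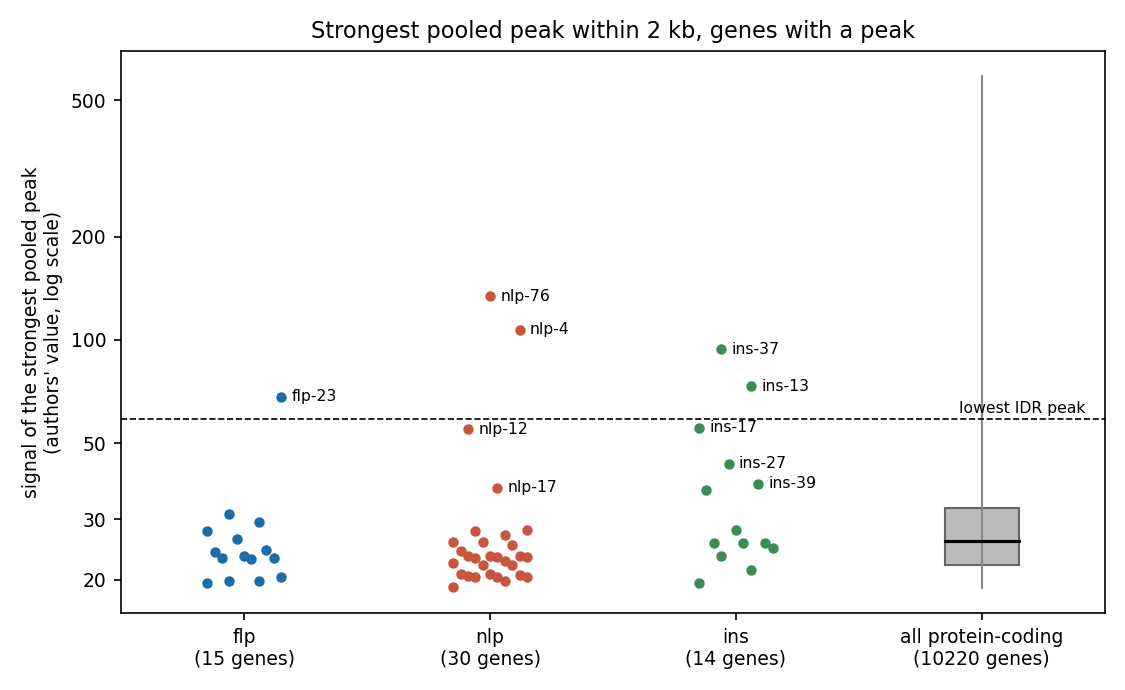
Signal of the strongest pooled peak within 2 kb (authors' value, log axis) for each of the 59 peptide genes with one, by family, and for all 10220 coding genes with one as a box of quartiles with a line at the median of 25.96 and whiskers to the lowest and highest values. The dashed line is the lowest IDR-level signal, 58.9; 5 peptide genes lie above it.

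Below the IDR threshold, ins-17 and nlp-12 came closest. ins-17, on chromosome III (WBGene00002100), had a pooled signal of 55.4 (rank 468), 21.2 in replicate 1 (rank 3858) and 29.5 in replicate 2 (rank 254). Its summit lay 1855 bp downstream of the ins-17 start, over the ncRNA gene F56F3.10, and only 201 bp from the start of rps-1, a ribosomal protein gene. nlp-12, a cholecystokinin-like peptide gene on chromosome I (WBGene00003750), had signals of 54.8 (rank 477), 17.8 in replicate 1 (rank 7684) and 26.7 in replicate 2 (rank 341). That summit lay 1126 bp upstream of nlp-12 and 187 bp from the start of emr-1, the emerin gene of the nuclear envelope. In both cases the peak was nearer to a broadly used gene than to the peptide gene, and replicate 2 ranked it far higher than replicate 1.

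The next insulin-like genes had peaks nearer to their own starts. ins-27 (chromosome I) had a pooled signal of 43.5 (rank 878), 18.9 in replicate 1 and 20.99 in replicate 2, with the summit in its coding sequence 39 bp downstream of the start. The replicate summits stood 12 bp and 26 bp from the pooled one. ins-39 (chromosome X) had a pooled signal of 38.02 (rank 1392) and 32.05 in replicate 1 (rank 700), with the summit 672 bp upstream of its start and outside coding genes, and replicate 2 listed no peak within 2 kb. ins-36, also an ins gene of the set, was not picked by the rule for which genes to describe, and its values were seen first. It had 36.6 (rank 1617), 22.5 in replicate 1 and 20.1 in replicate 2. The pooled summit of ins-36 lay 578 bp downstream of its start in a coding exon of Y53H1A.7. The strongest replicate 1 peak lay 3306 bp from that summit, the strongest replicate 2 peak 7 bp. Over all peaks in reach of ins-36, the closest replicate summits were 104 bp apart.

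Of the nlp genes, nlp-17 (chromosome IV) came next, with a pooled signal of 37.1 (rank 1532) and 33.6 in replicate 1 (rank 602). The summit lay 1483 bp upstream of nlp-17, in an intron of seld-1. The strongest replicate 1 peak stood 54 bp from that summit, and the strongest replicate 2 peak, at 10.05 (rank 14726), 2057 bp from it. Over all peaks in reach of nlp-17, the closest replicate summits were 2111 bp apart, so no replicate 2 peak in reach lay at the pooled summit. nlp-20 (chromosome IV) had 27.9 (rank 4939), 20.7 in replicate 1 and 10.01 in replicate 2, with the summit 832 bp upstream of its start. Signals of the other 25 nlp genes with a pooled peak were lower.

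After flp-23, the highest flp genes had pooled signals between the median and the upper quartile of all genes. flp-34 (chromosome V) had 31.1 (rank 3132), 15.5 in replicate 1 and 16.8 in replicate 2, and its summit lay 246 bp upstream of its start. The replicate 1 summit stood 2 bp from that point, but the strongest replicate 2 peak was 2226 bp away. A weaker replicate 2 peak stood 126 bp from the replicate 1 summit. flp-14 (chromosome III) had 29.4, no replicate 1 peak and 13.7 in replicate 2, with the summit 1745 bp upstream. flp-33 (chromosome I) had 27.8 and 19.8 in replicate 1, with no replicate 2 peak, and its summit lay in an intron of ntr-1, the nematocin receptor gene. flp-20 (chromosome X), a gene of the touch receptor neurons, had 26.3 and 12.8 in replicate 1, with no replicate 2 peak, and the replicate 1 summit stood 2314 bp from the pooled one. Of the 4, flp-34 alone had replicate summits within 200 bp of each other, and its replicate 1 peak ranked 11971.

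All 140 genes can be placed by the lists that held a peak for them. In 37 (26.4%) the pooled and both replicate lists did, against 38.0% of all coding genes. In 9 it was the pooled and the replicate 1 list (6.43%, against 5.02%), in 12 the pooled and the replicate 2 list (8.57%, against 7.65%), and in flp-25 the pooled list alone. A further 14 had a peak in both replicate lists and not in the pooled one, against 8.55% of all coding genes. Replicate 1 alone listed 12 (8.57%, against 6.06%) and replicate 2 alone 36 (25.7%, against 18.5%). No list held a peak for 19 (13.6%), against 15.7% of all coding genes. These were flp-4, flp-26, flp-27, flp-28, ins-2, ins-4, ins-5, ins-9, ins-32, nlp-16, nlp-22, nlp-23, nlp-29, nlp-33, nlp-46, nlp-50, nlp-52, nlp-53 and nlp-59.

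Many peptide genes had their replicate peaks at different places. Replicate summits within 200 bp of each other were found at 20 peptide genes (14.3%), against 23.8% of all genes. A peak among the strongest 5000 of both replicates lay near 9 (6.43%), against 9.63%: the 5 IDR-level genes, ins-17, ins-36, ins-34 and flp-1. At flp-1, a regulator of locomotion with 20.7 in replicate 1 and 14.2 in replicate 2, the 2 summits were 446 bp apart. At ins-34, with 22.5 in replicate 1 and 14.1 in replicate 2, they were 1225 bp apart, and no pooled peak was listed. Of the 59 strongest pooled peaks, 38 (64.4%) had a replicate 1 summit within 200 bp and 38 a replicate 2 summit, 20 had both (33.9%) and 3 neither. For all coding genes 42.6% had both and 4.69% neither. Across the 51 peptide genes with a peak in both lists, Spearman's rho between the strongest signals was 0.27, against 0.36 for 9303 coding genes. These rho values describe genes of the same 2 libraries and carry no test.

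**Figure D4:**
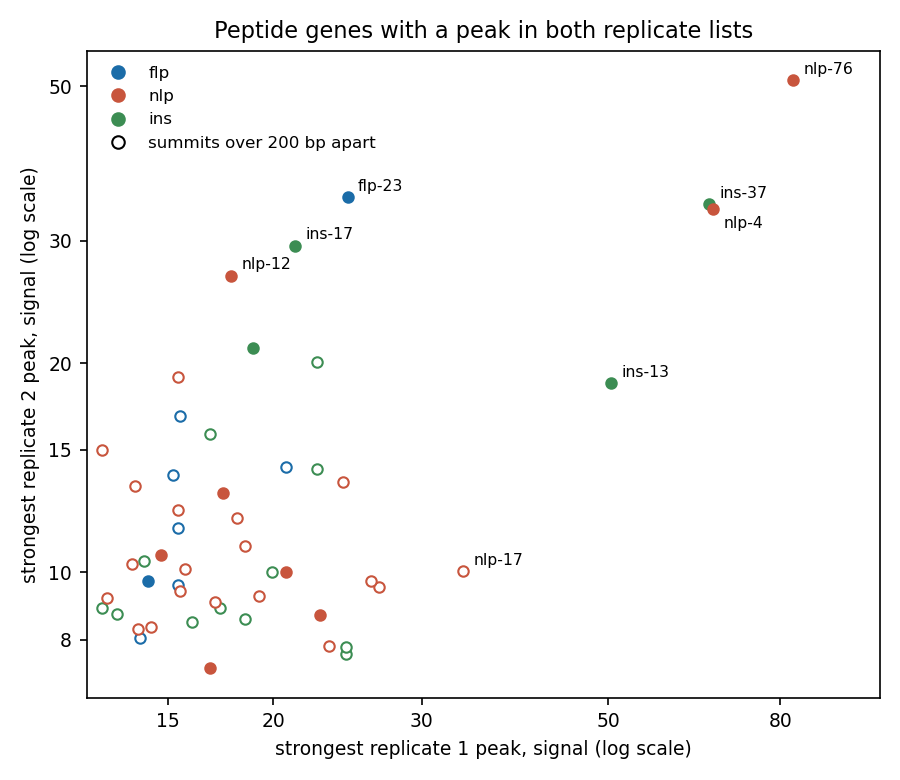
Signal of the strongest replicate 1 peak (x axis) and replicate 2 peak (y axis), both log scales, for the 51 peptide genes with a peak in both lists. Filled points have their summits within 200 bp of each other, open points do not; nlp-76, ins-37 and nlp-4 stand apart at the upper right, and most other points lie below 25 on the x axis and 20 on the y axis.

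The strongest pooled peaks of peptide genes tended to lie at some distance from the start. The median distance was 1012 bp at 59 peptide genes, against 794 bp at all genes. The summit was upstream of the start at 26 of 59 (44.1%), against 57.9% of all genes. It lay outside coding genes at 30 (50.8%), against 43.8%, in an intron at 14 (23.7%), against 28.2%, in a coding exon at 9 (15.3%), against 21.7%, and in a UTR exon at 6 (10.2%), against 6.24%. Of the 14 ins genes, 12 had the summit outside coding genes (85.7%). At 46 of 59 (78.0%) the peptide gene was the nearest coding gene, against 70.0% for all genes. A tRNA or snoRNA gene lay within 100 bp at 3 of 59 (5.08%), namely nlp-76, flp-23 and nlp-78 (pooled 20.8, none in replicate 1, 10.2 in replicate 2), against 2.79% of all genes.

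**Figure D5:**
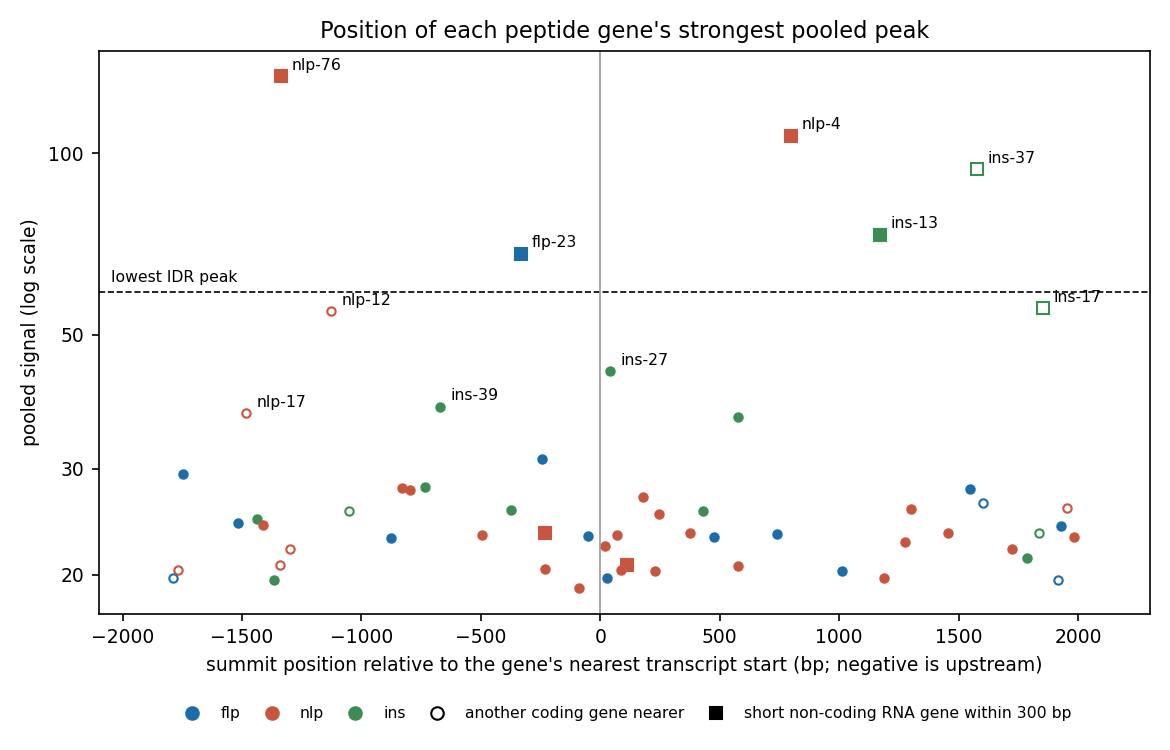
Position of the strongest pooled summit relative to the nearest start of each of the 59 peptide genes (x axis, bp, negative is upstream) and its signal (y axis, log scale). Open symbols have another coding gene nearer and squares have a tRNA, snoRNA, snRNA or ncRNA gene within 300 bp; all 5 points above the dashed line at 58.9 are squares.

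Some peptide genes lie in clusters, and peaks near peptide genes are not all separate. Of the 140, 35 had the start of another peptide gene within 5 kb. The 59 strongest pooled peaks were 58 distinct ones, because ins-7 and ins-8, neighbours on chromosome IV, shared a peak with its summit at 9681993. Its signal was 25.5 in the pooled list and 18.3 in replicate 2 (rank 1385), replicate 1 listing none. nlp-27 and nlp-28 likewise shared a replicate 1 peak of 15.4. In replicate 2 the strongest peak was shared by ins-19 and ins-31, ins-14 and ins-15, and ins-21 and ins-22. The same held for ins-25 and ins-29, ins-26 and ins-30, and nlp-31 and nlp-34. A shared peak counts for each of its genes in the counts given here.

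Grouped by what their peptides are known to do, with groups chosen after the values were seen, no group held an IDR-level gene. The groups are partial lists out of the 140 genes. None of the 5 IDR-level genes was placed in a group, so this says nothing about the roles of those 5. Of 6 insulin-like peptides known mainly as agonists of DAF-2 (ins-3, ins-4, ins-6, ins-7, ins-32 and ins-35), 2 had a pooled peak. These were ins-7 at 25.5 (none in replicate 1, 18.3 in replicate 2) and ins-35 at 24.8 (16.8 in replicate 1, 15.8 in replicate 2). The strongest replicate 2 peak of ins-35 lay at another place, but a weaker replicate 2 peak stood 32 bp from its replicate 1 summit. Of the 2 antagonists listed, ins-1 and ins-18, ins-18 had a pooled peak, at 19.6, with 24.4 in replicate 1, at a place 1200 bp away, and 7.82 in replicate 2. Of 5 peptides that promote sleep (flp-11, flp-13, flp-24, nlp-8 and nlp-22), flp-13 at 23.4 (16.1 in replicate 2) and flp-24 at 24.1 (11.4 in replicate 2) had a pooled peak, 4 had a replicate 2 peak and 0 a replicate 1 peak. Of the 11 genes nlp-24 to nlp-34, several of which are induced in the epidermis by infection or wounding, 3 had a pooled peak: nlp-24 at 27.7 (23.3 in replicate 1, 7.84 in replicate 2), nlp-25 at 25.8 (17.4 in replicate 1, 13.03 in replicate 2) and nlp-26 at 22.7 (20.4 in replicate 1, none in replicate 2). These counts are read against 51.2% of all coding genes for pooled, 57.7% for replicate 1 and 72.8% for replicate 2 peaks, and the groups are too small to set apart from them. nlp-40, whose peptide times the defecation rhythm from the intestine, had 23.5, with 13.5 in replicate 2 at the same place and 24.2 in replicate 1 at a place 3962 bp away. All of these pooled values are at or below the upper quartile of the peptide genes.

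The genes that act on these peptides were set beside them. Of 24 genes for precursor processing and dense-core vesicle release, 17 had a pooled peak (70.8%), 2 of them IDR-level (8.33%), and the median signal was 24.2. vps-51, a subunit of a tethering complex used in dense-core vesicle formation, had signals of 195.2 (rank 13), 106.6 in replicate 1 and 86.03 in replicate 2, with the summit 174 bp upstream. bli-4, a convertase known mainly for cuticle collagen processing, had 59.97 (rank 400), 37.9 in replicate 1 and 25.01 in replicate 2, with the summit 264 bp upstream. The core neuropeptide enzymes were lower: egl-21 had 31.7 (22.01 in replicate 1, 12.8 in replicate 2) and egl-3 had 19.8 (19.1 in replicate 1, 11.8 in replicate 2) at 1951 bp upstream. unc-31 had 22.2 (19.1 in replicate 1, 8.63 in replicate 2). vps-51 and bli-4 thus had peaks closer to their starts than any of the 5 IDR-level peptide genes, which lay at 333 bp or more.

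Of 41 neuropeptide receptor genes, 21 had a pooled peak (51.2%) and none an IDR-level one, with a median of 23.9. The highest were npr-13 at 41.8 (19.5 in replicate 1, none in replicate 2), at a tRNA gene, and sprr-1 at 37.9 (18.7 in replicate 1, 14.6 in replicate 2). Of 14 genes of the insulin signalling pathway, 11 had a pooled peak (78.6%) and none an IDR-level one, with a median of 27.01. egl-30, the Gq alpha subunit gene, whose product promotes transmitter and peptide release, had 58.8 (rank 408), the first pooled peak below the IDR list, with 55.3 in replicate 1 and 20.3 in replicate 2. pdk-1, a kinase downstream of DAF-2, had 47.9 (25.8 in replicate 1, 25.3 in replicate 2). The receptor gene daf-2 had 33.4 (23.1 in replicate 1, 14.8 in replicate 2) and the target transcription factor gene daf-16 had 40.4 (23.7 in replicate 1, 16.1 in replicate 2), both above the upper quartile of the peptide genes.

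A list of other peptide genes, outside the flp, nlp and ins names, gave similar values. Of 16, 8 had a pooled peak and none an IDR-level one, with a median of 24.2. The list is not of hormone genes alone, since it holds cnc-1 to cnc-7, of which cnc-2, cnc-6 and cnc-7 had a pooled peak. daf-28 is also counted among the insulin pathway genes above. daf-28, an insulin-like gene with another name, had a pooled signal of 22.9, with 13.7 in replicate 1 and 10.8 in replicate 2, with the summit 1114 bp downstream. pdf-1, a pigment-dispersing factor gene that acts in roaming, had no pooled or replicate 1 peak and 10.8 in replicate 2. The highest were lury-1 at 28.6 (20.4 in replicate 1, 14.1 in replicate 2) and trh-1 at 26.2 (none in replicate 1, 12.9 in replicate 2). Shares of the 4 lists are read against 51.2% of all coding genes for pooled peaks and 2.53% for IDR-level ones.

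An E-box was present under a somewhat smaller share of peptide gene peaks, within the counting error of the share for other peaks. Within 100 bp of the summit, 25 of 58 distinct strongest pooled peaks held one (43.1%; Wilson 95% interval 31.2 to 55.9, counting error only), against 6227 of 11974 pooled peaks within 2 kb of a coding start (52.0%). The median GC content of the windows was 35.8%, against 37.3%. In promoters, taken as 250 bases before to 50 after the outermost start, 92 of 140 peptide genes had an E-box (65.7%), against 69.4% of all coding genes. CAAGTG, with its reverse complement CACTTG, was in 12.1% of peptide gene promoters, against 12.4%, and CAGCTG in 1.43%, against 5.55%. The B-box letters GGTTCGA were in 0 of 140 promoters, against 1.42% of all. The tRNA genes under the peaks of nlp-76 and flp-23 lie outside the promoters as taken here.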

How the data were processed

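HLH-15 ChIP-seq peaks of 2 biological replicates of 1 group were analysed on ce11. Notes that the authors deposited say that replicate and pooled lists derive from alignments plus a control library, which is not analysed here, and that the IDR list derives from them. An aligner or peak caller is not given in the sources used here. Each peak's signal is the authors' deposited value, of unstated scale, and was used only within a list. The −log10 q values are likewise deposited by the authors. Lists on ce10 were not used.

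Summits were set against Ensembl release 115 (29784 coding transcript starts) and the NCBI WBcel235 sequence, with Python 3.11.15, NumPy 2.4.6, SciPy 1.17.1 and Matplotlib 3.10.9. The search for peaks near transcript starts was tested on simulated peaks. Counts over the peptide genes stand beside the share of all protein-coding genes, with no test. The peptide genes, pathway lists and role groups were chosen with earlier results of these data known. The genes named were those with an IDR-level peak, the 5 highest by pooled signal in each family, those among the strongest 1000 of both replicates, those among the strongest 2000 pooled peaks with a tRNA or snoRNA gene within 100 bp, daf-28, pdf-1, hlh-15 and, of each pathway list, the IDR-level genes or otherwise the highest 2; genes named beside these were chosen after their values were seen. Of the listed pathway genes, rab-2 and capr-1 matched no annotated name. Alternatives covered distance, start choice, nearest-gene assignment, thresholds, windows and the removal of peaks at tRNA and snoRNA genes.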

Additional observations from a re-analysis of the deposited data

How the results depend on the processing

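Of 49 alternatives, 5 of them added after the data were seen, 33 left the value within 1.5 times the one given or, for the E-box share, within its interval, and 16 did not. The 33 include the alternatives for the median pooled signal, which could not fall below that range because no pooled signal is under 18.96. Peptide genes with a pooled peak numbered 32 within 1 kb (22.9%, against 35.7% of all coding genes) and 23 within 500 bp (16.4%, against 23.9%), in place of 59. Those with an IDR-level peak numbered 2 within 1 kb (1.43%, against 1.78%) and 1 within 500 bp (0.714%, against 1.31%), so the share above that of all genes was seen at 2 kb and not at the shorter distances. The IDR-level count was 3 without peaks at tRNA and snoRNA genes (2.14%, against 1.82%) and 3 with the stronger part of the IDR list (2.14%, against 1.40%). The strongest peaks of a single replicate were also put in place of the IDR list. The count was then 6 without replicate 1 (4.29%, against 2.57%) and 4 without replicate 2 (2.86%, against 2.46%). Replicate 1 gave 41 within 1 kb and 21 within 500 bp, in place of 72, and replicate 2 gave 48 within 500 bp, in place of 99. Genes among the strongest peaks of both replicates numbered 3 within 1 kb, 3 within 500 bp, 4 for the strongest 2000 and 15 for the strongest 10000, in place of 9. Replicate summits within 50 bp were found at 10 genes (7.14%, against 10.4%), in place of 20. The E-box share was 31.03% within 50 bp and 65.5% within 200 bp of the summit, in place of 43.1%. Shorter distances and windows hold fewer peaks and bases by construction. The depth is unknown, 2 replicates give no error for a gene, and no control library was analysed.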
